A study of Mus musculus with 3 samples.

Results

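CD274-high and CD274-low hematopoietic stem cells (HSCs) were compared by the accessibility of their chromatin. CD274 (PD-L1) is a ligand of the inhibitory receptor PD-1, and the study used it as a surface marker that is high on platelet-biased HSCs (PLT-HSCs). The cells were chosen by their CD274 antibody tags. Of 3724 cells with antibody counts, 3629 had at least 10 tags summed over the 12 antibodies, and these were the kept cells. A count of 27 or more put 937 cells (25.8% of kept cells) in the CD274-high gate, and a count of 12 or less put 877 cells (24.2%) in the CD274-low gate. The 1815 cells between the gates, with counts of 13 to 26, were not used by the gates. The gates had median counts of 34 and 9 tags, with counts up to 110 in CD274-high cells and down to 2 in CD274-low cells. At the edges, 147 cells had a count of 12 and 144 had 13, while 87 cells had 26 and 61 had 27.

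All cells came from 1 pool of long-term HSCs (LT-HSCs), obtained from marrow of female C57BL6/J mice aged 24 months (genotype wild-type) and sorted as lineage-negative cells positive for Sca-1, c-Kit and CD150 and negative for CD48 and CD34, with no treatment named in the labels. The sources used here do not say how many mice the pool held. DOGMA-seq gives ATAC fragments of open chromatin, RNA UMIs and antibody tags for each permeabilised cell, here in 3 libraries (1 per assay), and 3724 of 4369 called cells had antibody counts. Both gates were drawn from that pool, so each was 1 sample without a replicate and no test between them could be made. All intervals are exact, at 95%, and reflect counting error alone. RNA enters only as totals per cell.

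HSCs that keep a stem cell state divide rarely. Their progeny take up lineage programs that are opened by transcription factors such as Gata1 in erythroid and megakaryocytic cells and Spi1 (PU.1) in myeloid and lymphoid cells. In ATAC, an enzyme cuts open chromatin. More fragments at a promoter or distal element mean that it was open in more cells or in more of the time. This holds at equal depth and signal quality, and signal quality differed between the gates, as given below. Interferon and cytokine signals are known to raise Cd274 through JAK-STAT and IRF factors. A total of 22 of 26 stem cell identity genes reached the minimum of 500 fragments over both gates and 1 of 24 genes of other tissues did, without regard to gene length. Summed over the stem cell identity list, the level was 38.0 fragments per 10000 nuclear fragments in CD274-low and 37.8 in CD274-high cells.

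The sequences of the tag and of 4 elements named below are shown first. The tag is the one counted to make the gates. The others, from mm10 (GRCm38), are the stretch of the Gata1 locus with the most fragment ends, a pair of distal windows that were more open in CD274-high cells, and a distal window that was more open in CD274-low cells. Capitals mark matches on either strand to the GATA motif AGATAA or to the AP-1 motif TGANTCA. The elements are shown on the plus strand.
CD274 tag: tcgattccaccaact
Gata1 stretch, intronic in the longest annotated transcript, chrX:7971261-7971560: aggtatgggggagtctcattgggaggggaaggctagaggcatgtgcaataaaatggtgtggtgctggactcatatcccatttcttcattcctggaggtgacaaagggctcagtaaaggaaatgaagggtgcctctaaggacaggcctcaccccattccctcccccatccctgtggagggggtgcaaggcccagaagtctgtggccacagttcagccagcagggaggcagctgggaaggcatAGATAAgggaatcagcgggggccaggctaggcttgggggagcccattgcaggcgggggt
Window higher in CD274-high cells, intergenic, chr2:61138951-61139250: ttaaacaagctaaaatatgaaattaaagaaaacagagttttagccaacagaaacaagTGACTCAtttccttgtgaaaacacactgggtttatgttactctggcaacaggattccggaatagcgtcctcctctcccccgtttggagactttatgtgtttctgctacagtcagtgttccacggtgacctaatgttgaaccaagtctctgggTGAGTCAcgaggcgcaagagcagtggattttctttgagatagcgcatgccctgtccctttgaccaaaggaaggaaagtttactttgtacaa
Window higher in CD274-high cells, intron of Cux1, chr5:136458501-136458800: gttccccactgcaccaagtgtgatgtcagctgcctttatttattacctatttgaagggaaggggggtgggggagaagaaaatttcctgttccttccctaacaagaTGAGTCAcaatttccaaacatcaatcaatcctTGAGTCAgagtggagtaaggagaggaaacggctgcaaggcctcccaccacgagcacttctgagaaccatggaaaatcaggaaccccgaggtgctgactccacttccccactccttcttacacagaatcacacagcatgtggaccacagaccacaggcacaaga
Window lower in CD274-high cells, intron of Nova2, chr7:18950751-18951050: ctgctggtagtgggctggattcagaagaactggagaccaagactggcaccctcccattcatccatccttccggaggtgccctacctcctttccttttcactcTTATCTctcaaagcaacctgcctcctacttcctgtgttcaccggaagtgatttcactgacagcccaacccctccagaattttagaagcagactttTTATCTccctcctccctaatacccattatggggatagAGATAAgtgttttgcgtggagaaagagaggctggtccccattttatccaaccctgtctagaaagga

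The Gata1 stretch held 1 GATA match, both higher windows held 2 AP-1 matches each, and the lower window held 3 GATA matches. The 3 windows were chosen for print after their motifs were seen. The lower one was the 1 window with a GATA match among the 8 named lower windows, and the named higher window with the highest lower bound held neither motif. In the 250 bases upstream of the RefSeq start, the Cd274 promoter, with close levels in the gates, held 2 matches to the GATA motif, the Epor promoter held 1, and the Zfp385a promoter held 0 to either motif. Among the 3622 distal windows measured, 13.7% held AGATAA and 15.8% held TGANTCA. Among all promoters of the RefSeq table, cut to the same 250 bases, the shares were 9.99% and 6.75%.

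The gates had similar depth. CD274-low cells had a median of 10486 ATAC fragments (interquartile range 8668 to 12427) and CD274-high cells 10311 (8328 to 12314). RNA totals were also close, with medians of 2053 and 1983 UMIs and of 1251 and 1195 genes per cell. Summed over cells, the CD274-low gate held 9348731 nuclear fragments and the CD274-high gate 10333092. Across all 3629 kept cells, the rank correlation of CD274 tags was -0.00342 with ATAC fragments and -0.0151 with RNA UMIs, given as a description.

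In contrast to depth, the quality of the ATAC signal moved with CD274. Fragments in peak regions made up 65.3% of fragments in CD274-low cells, 66.8% at counts of 13 to 19, 67.4% at 20 to 26 and 67.8% in CD274-high cells. The share of fragments with an end in a distal window (300 bp around a local maximum of fragment ends, over 2 kb from any transcript start) was 16.1%, 16.8%, 17.1% and 17.3% in the same order. Mitochondrial reads made up 0.713% of ATAC reads in CD274-low and 0.454% in CD274-high cells. Over cells, the rank correlation of this share with CD274 was 0.0232. An excess of overlapping fragments, which marks possible doublets, was found in 13.7% (11.53 to 16.03) of CD274-high cells and in 6.27% (4.76 to 8.09) of CD274-low cells. Doublets were not removed, and their part in the results below was not tested beyond the values given without these cells.

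All 11 other antibodies had higher mean tag counts in CD274-high cells. CD61 (integrin beta 3), which the study also placed high on PLT-HSCs, had 3.01 tags per cell (2.90 to 3.13) in CD274-low and 4.39 (4.26 to 4.53) in CD274-high cells, with 3.64 and 4.02 in the cells between. CD357 (GITR) and CD27, both receptors of the TNF receptor family that the study placed low on PLT-HSCs, were higher too. Their means rose from 2.79 to 4.11 tags for CD357 and from 0.732 to 1.14 tags for CD27. The ratio of the means was 1.46 (1.39 to 1.53) for CD61, 1.47 (1.40 to 1.55) for CD357 and 1.56 (1.42 to 1.73) for CD27, and the intervals of these 3 ratios overlapped. CD201 (EPCR), an HSC marker, had a ratio of 1.70 (1.47 to 1.98) and P2X7R, an ATP-gated channel, 1.46 (1.29 to 1.66). For CD106 and CD163 the interval of the ratio held 1. Tags that matched no antibody had a ratio of 1.57 (1.51 to 1.65), with means of 3.55 and 5.59 per cell. Only CD201 and CD206 had a higher ratio. That of CD206, 3.06 (1.34 to 8.82), rested on 7 tags in CD274-low and 24 in CD274-high cells. The rank correlation of unmatched tags with CD274 over kept cells was 0.299, against 0.195 for CD61 and 0.134 for CD27. The part of general tag capture in the antibody ratios was not tested.

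**Figure D1:**
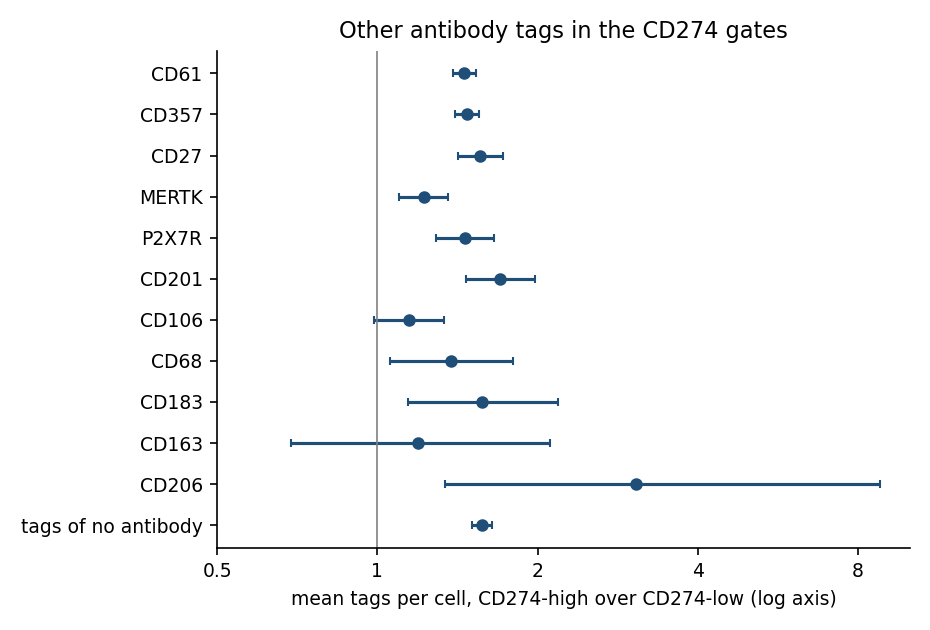
Ratio of the mean tag count per cell in 937 CD274-high cells over 877 CD274-low cells (horizontal log axis) for the 11 other antibodies and for tags that matched none. Points are ratios and bars are exact 95% counting intervals. All points lie above 1, between 1.15 for CD106 and 3.06 for CD206, with unmatched tags at 1.57. CD206 had 7 tags in CD274-low and 24 in CD274-high cells.

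The ratio was also taken among cells with at least 20 tags, where it was 0.953 for CD61, 0.947 for CD357, 0.670 for MERTK and 1.20 for CD27. This minimum kept all 937 CD274-high cells but only 277 CD274-low cells, and a cell with few CD274 tags can reach it only with more tags of the others. Without the cells with an excess of overlapping fragments, CD61 had a ratio of 1.31 and CD27 of 1.41.

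At the Cd274 gene itself, accessibility was close in the gates. The gene and 2 kb upstream (chromosome 19) had 0.317 fragments per 10000 nuclear fragments in CD274-low cells, 0.349 at counts of 13 to 19, 0.333 at 20 to 26 and 0.350 in CD274-high cells. The log2 ratio of CD274-high over CD274-low was 0.15, with an interval of -0.08 to 0.37. At least 1 fragment was seen in 27.5% of CD274-low cells and in 28.7% of CD274-high cells. The Cd274 promoter (1 kb on each side of the start) had a log2 ratio of 0.09 (-0.24 to 0.43). Neighbouring Pdcd1lg2, which encodes the second PD-1 ligand, had 0.355 fragments per 10000 in CD274-low and 0.420 in CD274-high cells, a log2 ratio of 0.24 (0.03 to 0.45). For Pdcd1lg2 the ratio was 0.03 (-0.26 to 0.33) with each cell thinned to 6000 fragments, 0.18 (-0.11 to 0.47) with gates at 35 or more and 9 or less, and 0.44 (0.19 to 0.70) without cells with a Gata1 fragment. Jak2, the cytokine receptor kinase in the same region, had a log2 ratio of 0.10 (-0.03 to 0.23). None of the 10 measured genes of the Cd274 neighbourhood list differed by the fold threshold used for genes (25% higher or 20% lower), and their median log2 ratio was 0.02, beside 0.00 over all genes measured.

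Among the other genes that encode the antigens, P2rx7 had a log2 ratio of 0.27 (0.12 to 0.42), with levels of 0.724 and 0.873 per 10000 in CD274-low and CD274-high cells. Mrc1, the mannose receptor CD206 of macrophages, had 0.28 (0.05 to 0.50), with 0.19 (-0.12 to 0.51) for the gates at 35 and 9, and Itgb3, which encodes CD61, had 0.04 (-0.09 to 0.17). The genes for CD357 (Tnfrsf18) and CD27 had 0.0909 against 0.0813 and 0.198 against 0.169 fragments per 10000, with intervals that held 0. Of this list, 5 of 12 genes reached 500 fragments, none passed the gene threshold, and all 5 had a log2 ratio above 0 (median 0.15).

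Across the genome, 13059 genes had at least 500 fragments over both gates. Of these, 118 were at least 25% higher in CD274-high cells (0.904% of genes measured) and 100 were at least 20% lower (0.766%), which is the same fold in each direction. Scaled by promoter fragments, the counts were 84 higher and 146 lower. The median log2 ratio was 0.00. All kept cells were also split at 20 or more against 19 or less. Past the fold threshold for genes stayed 1 of the 10 higher and 5 of the 10 lower genes named below, and all 20 kept their direction. That split holds every cell of both gates, which chose these genes, so a kept direction is no separate support. In the cells between the gates, which took no part in this choice, the level at counts of 20 to 26 was above that at 13 to 19 for 67 of the 118 higher genes (56.8%), beside 50.3% of all genes measured. For 61 of the 100 lower genes it was below (61.0%), beside 49.7% of all genes.

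**Figure D2:**
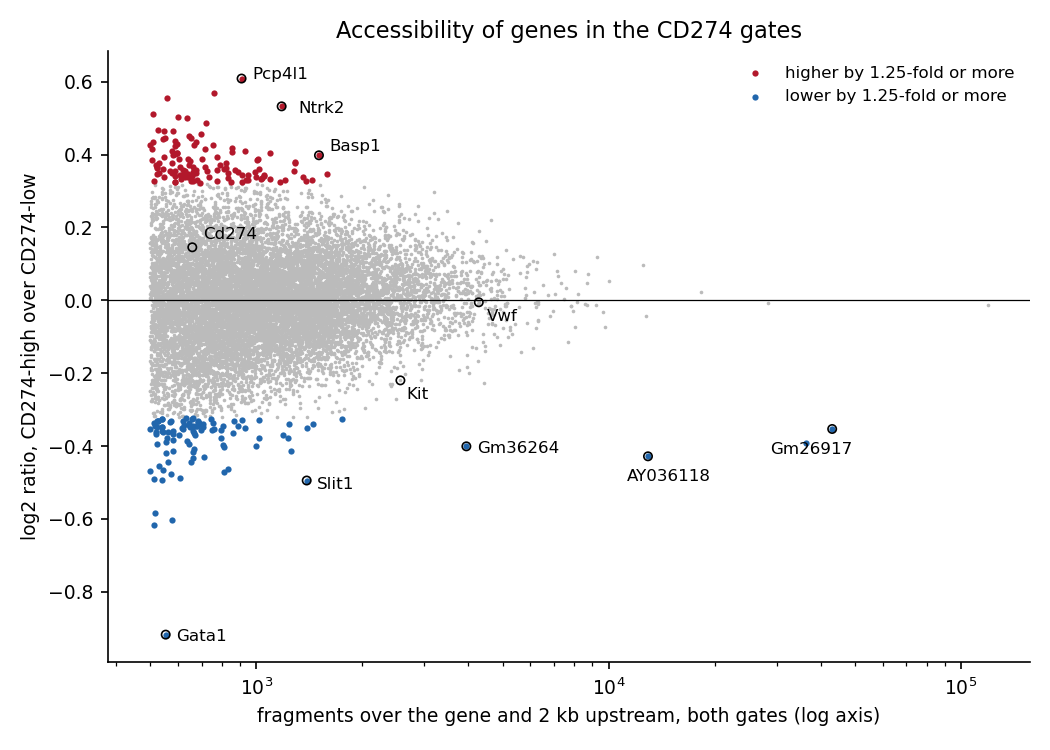
Log2 ratio of fragments in CD274-high over CD274-low cells (vertical axis) against the fragments of both gates (horizontal log axis) for 13059 genes, each point 1 gene. Coloured points are at least 25% higher (118) or at least 20% lower (100) in CD274-high cells. Gata1 lies lowest, at -0.92, and Cd274 and Vwf lie in the grey cloud.

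Gata1, the master transcription factor of erythroid and megakaryocytic cells, had the largest difference of all genes measured. The gene with 2 kb upstream (chrX:7959260-7978071 for the gene) had 0.373 fragments per 10000 in CD274-low cells, 0.263 at counts of 13 to 19, 0.244 at 20 to 26 and 0.197 in CD274-high cells. The level fell at each step, and the log2 ratio was -0.92 (-1.18 to -0.67), which is 1.89-fold more in CD274-low cells. For counts of 20 to 26 over 13 to 19 alone, the log2 ratio was -0.11 (-0.38 to 0.16). At least 1 fragment was found in 28.1% (25.1 to 31.2) of CD274-low cells and in 18.1% (15.7 to 20.8) of CD274-high cells. At least 2 fragments were found in 8.32% and 2.88% of cells, and no cell in either gate had more than 5.

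The Gata1 stretch printed above lies 3500 bp upstream of the start of the main transcript, in a region known to hold a hematopoietic enhancer of the gene. It held 106 fragments in CD274-low and 46 in CD274-high cells, with 64 and 59 in the cells between. The log2 ratio was -1.34 (-1.88 to -0.84). In levels per 10000 the order was 0.113, 0.0608, 0.0713 and 0.0445, so the bins between the gates lay between them but not in order. With gates at 35 or more and 9 or less, the log2 ratio of the whole gene was -1.22.

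**Figure D3:**
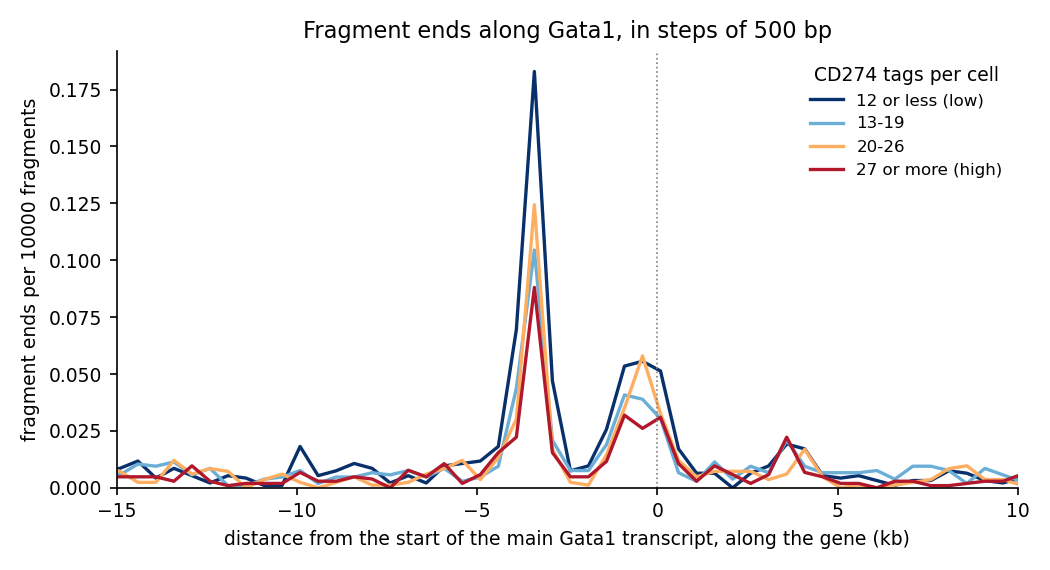
Fragment ends per 10000 nuclear fragments in steps of 500 bp along Gata1 (vertical axis) against the distance from the start of the main transcript in kb (horizontal axis), 1 line per range of CD274 tags. The upstream peak is highest in CD274-low cells, with 171 ends in its highest step, and lowest in CD274-high cells, with 91.

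The promoter of Epor, the erythropoietin receptor that acts downstream of Gata1 in erythroid cells, had the largest difference among promoters. It held 185 fragments in CD274-low and 103 in CD274-high cells. Levels were 0.198, 0.130, 0.123 and 0.0997 per 10000 from CD274-low to CD274-high cells, and the log2 ratio was -0.99 (-1.35 to -0.63). For counts of 20 to 26 over 13 to 19 alone, the log2 ratio was -0.08 (-0.46 to 0.30). Within 1 kb on each side of the annotated start, the most ends lay at chr9:21962507-21962806, which overlaps an exon of Epor downstream of the start and had a log2 ratio of -1.05 (-1.46 to -0.66). In cells without any Gata1 fragment, an alternative added after the data were seen, the Epor promoter had a log2 ratio of -0.95. With all kept cells split at 20 and 19 it was -0.56, below the threshold. A cell with no Gata1 fragment can still have the locus open.

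The promoter of Zfp385a, a zinc finger protein of hematopoietic cells, had 420 fragments in CD274-low and 281 in CD274-high cells. Its levels were 0.449, 0.291, 0.285 and 0.272 per 10000, so that CD274-low cells stood apart from the other 3 ranges, which differed little. The log2 ratio was -0.72 (-0.95 to -0.50). Fewer fragments in CD274-high cells were also found at the promoters of Tnfsf4 (OX40 ligand, log2 ratio -0.90, -1.33 to -0.50), Nxph1 (-0.73, -1.10 to -0.38) and Pes1, a ribosome assembly factor (-0.65, -0.95 to -0.35).

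**Figure D4:**
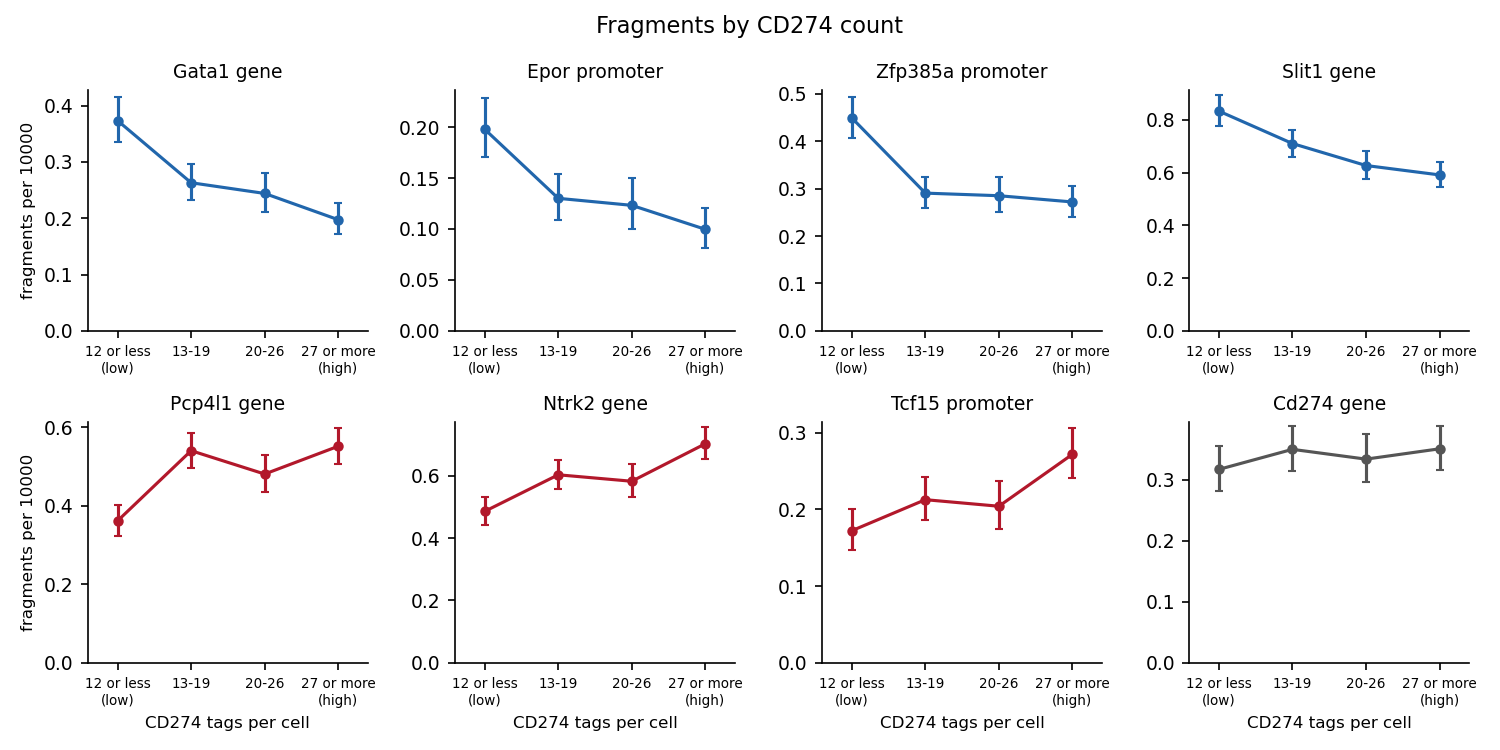
Fragments per 10000 nuclear fragments (vertical axes from 0) for 8 genes or promoters in the 4 ranges of CD274 tags (horizontal axes). Points are sums over cells and bars are exact 95% Poisson intervals. Gata1, Epor, Slit1 and Zfp385a fall at each step, Zfp385a mostly from the CD274-low cells to the next range, and Cd274 stays between 0.317 and 0.350.

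In all, 12649 promoters had at least 200 fragments. At least 1.5-fold higher in CD274-high cells were 27 (0.213%), and at least 1.5-fold lower were 18 (0.142%), with a median log2 ratio of 0.02. In the cells between the gates, 13 of the 18 lower promoters (72.2%) were lower at counts of 20 to 26 than at 13 to 19, beside 48.7% of all promoters. Of the 27 higher promoters, 10 (37.0%) were higher at counts of 20 to 26 than at 13 to 19, beside 51.3% of all promoters.

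Among the higher promoters, Tcf15, a basic helix-loop-helix factor known from quiescent HSCs, had 161 fragments in CD274-low and 281 in CD274-high cells. Its levels of 0.172, 0.213, 0.204 and 0.272 per 10000 gave a log2 ratio of 0.66 (0.37 to 0.95). It fell below the 1.5-fold threshold in 5 alternatives, with 0.33 for gates at 35 or more and 9 or less, 0.32 for all kept cells split at 20 and 19, 0.52 for the centred log ratio, 0.49 for the rank residual and 0.40 for at least 20 tags. Abi3, an adaptor of actin signalling, had a log2 ratio of 0.75 (0.37 to 1.16), and Eefsec, the elongation factor for selenocysteine, 0.72 (0.37 to 1.08). The remaining promoters named by the rule were Gm31881 (0.72, 0.38 to 1.07) and Pcp4l1 (0.66, 0.37 to 0.96).

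Pcp4l1, related to the calmodulin-binding protein Pcp4, also led the higher genes (chr1:171173262-171196268). It had 338 fragments in CD274-low and 570 in CD274-high cells, and levels of 0.362, 0.540, 0.481 and 0.552 per 10000. The log2 ratio was 0.61 (0.41 to 0.81). The share of cells with a fragment was 29.1% (26.1 to 32.2) in CD274-low and 42.6% (39.4 to 45.8) in CD274-high cells, and the interval of CD274-low cells overlapped none of the others. With all kept cells split at 20 and 19, the log2 ratio of Pcp4l1 was 0.19 (0.06 to 0.32) and that of Ntrk2 0.24, both below the gene threshold. Ntrk2, which encodes the neurotrophin receptor TrkB, followed with 0.486, 0.603, 0.582 and 0.703 per 10000 and a log2 ratio of 0.53 (0.36 to 0.71). Cav2, a caveolin of membrane invaginations, rose mainly in CD274-high cells, from 0.228, 0.236 and 0.254 to 0.335 per 10000. Its log2 ratio was 0.55 (0.31 to 0.81). Basp1, a membrane-bound signalling protein, had 0.656 and 0.864 per 10000 in CD274-low and CD274-high cells (log2 ratio 0.40, 0.25 to 0.55). The other genes at this end were Gm525, Cyp2j9, Mettl24, Ube2ql1, A930001C03Rik and Gm29481, with log2 ratios of 0.46 to 0.57. Of the 118 higher genes, 33 were not annotated as protein coding, and of the 100 lower ones 8, beside 13.6% of all genes measured.

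At the lower end, Slit1, a secreted guidance ligand, had 0.833, 0.710, 0.627 and 0.591 fragments per 10000 from CD274-low to CD274-high cells, a step down at each range, with a log2 ratio of -0.49 (-0.65 to -0.34). Afap1l2, an actin-associated adaptor, had 0.318 and 0.207 per 10000 in the gates (-0.62, -0.88 to -0.36). Tacr1, the substance P receptor, had 0.356 and 0.234 (-0.60, -0.85 to -0.36), and the cells between the gates had 0.270 and 0.245. The gene 4930556J24Rik, which overlaps the Pes1 promoter, had a log2 ratio of -0.58, and Glp2r and Nxph1 had -0.47 and -0.46.

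The remaining lower genes were loci with very many fragments. Gm26917 and AY036118, neighbours on chromosome 17 in a region that resembles the ribosomal RNA repeat, had 24.7 and 7.60 fragments per 10000 in CD274-low cells and 19.4 and 5.65 in CD274-high cells. Their levels fell at each step of CD274, with log2 ratios of -0.35 (-0.38 to -0.33) and -0.43 (-0.48 to -0.38). Gm36264 on chromosome 13 had 2.30 and 1.74 per 10000 (-0.40, -0.49 to -0.31). For the pair on chromosome 17, fragments from repeat copies elsewhere in the genome may be placed there.

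Distal windows differed mostly in one direction. Of 3622 windows with at least 200 fragments, 79 were at least 1.5-fold higher in CD274-high cells (2.18%) and 11 were at least 1.5-fold lower (0.304%). The median log2 ratio over all windows was 0.10, together with the higher share of fragments in distal windows given above. Scaled by the fragments in distal windows, an alternative added after the data were seen, the counts were 33 higher and 26 lower. In the cells between the gates, 49 of the 79 higher windows (62.0%) had more at counts of 20 to 26 than at 13 to 19, beside 55.9% of all windows.

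The window with the highest lower bound was intergenic at chr4:150808551-150808850, 17033 bp from the start of Gm13049. It had 82 fragments in CD274-low and 183 in CD274-high cells, a log2 ratio of 1.01 (0.63 to 1.41). At the window printed above on chromosome 2, 72 and 159 fragments gave 0.99 (0.59 to 1.42), with levels of 0.0770, 0.114, 0.103 and 0.154 per 10000. The window in an intron of Cux1, a homeobox gene, rose at each step, with 0.0973, 0.120, 0.144 and 0.180 per 10000 and a log2 ratio of 0.88 (0.52 to 1.27). A window 11458 bp from the start of Ski, a repressor of TGF-beta signalling (chr4:155233901-155234200), had 153 and 286 fragments and a log2 ratio of 0.76 (0.47 to 1.05). The other 4 of the 8 windows named at this end lay on chromosomes 5, 7, 8 and 12 and had log2 ratios of 0.81 to 0.91. Most of the 8 windows were not graded between the gates. The level at counts of 20 to 26 was below that at 13 to 19 on chromosomes 2, 4, 7 and 12, with a log2 ratio of -0.47 (-0.84 to -0.12) on chromosome 12. It was above on chromosomes 5 and 8. AP-1 matches were found in 4 of these 8 windows and in 1 of the 8 named lower windows, beside 15.8% of windows measured. GATA matches were found in 1 of the 8 lower and 0 of the 8 higher windows, beside 13.7%.

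At the lower end, the window with the lowest upper bound was chr1:75445801-75446100, 4486 bp from the start of Asic4, with 128 and 81 fragments and a log2 ratio of -0.80 (-1.22 to -0.39). The window in Nova2 printed above had 120 fragments in CD274-low and 82 in CD274-high cells. Its levels of 0.128, 0.0750, 0.106 and 0.0794 per 10000 were not in order, and the log2 ratio was -0.69 (-1.12 to -0.28). The other 6 windows named at this end had log2 ratios of -0.59 to -0.70.

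Motifs of transcription factors divided the distal windows. AP-1 is formed by Fos and Jun proteins after stimulation, and the 572 windows with TGANTCA had a summed log2 ratio of 0.17 (0.16 to 0.18), beside 0.09 (0.09 to 0.10) over all windows. Of these windows, 5.42% were at least 1.5-fold higher in CD274-high cells, beside 2.18% of all. The 107 windows with TTACNTAA, the site of Hlf and related factors, had 0.17 (0.14 to 0.20), and 7.48% of them passed 1.5-fold. The PU.1 motif GAGGAAGT had 0.14 (0.12 to 0.16) over 265 windows, of which 1.51% passed 1.5-fold, below the 2.18% of all. At the other end, the 495 windows with the GATA motif AGATAA had 0.05 (0.04 to 0.06). The 97 windows with the CTCF motif AGGGGGCGC were close to these, at 0.06 (0.03 to 0.09). Of the GATA windows, 7 were at least 1.5-fold higher in CD274-high cells (1.41%) and 1 was at least 1.5-fold lower (0.202%), beside 2.18% and 0.304% of all windows. Median GC content was 52.7% in windows with AP-1, 51.0% with GATA and 53.7% in all. From the GC content alone, taken in 5 classes of windows, the expected median log2 ratio was 0.10 for AP-1 and 0.11 for GATA windows, beside measured medians of 0.17 and 0.06. In the cells between the gates, the median log2 ratio of counts of 20 to 26 over 13 to 19 was 0.034 for AP-1, 0.020 for GATA and 0.027 for all windows. The GATA difference from all windows was 0.001 when each cell was thinned to 6000 fragments, which left 742 windows with enough fragments, while the AP-1 difference was 0.084 there and 0.079 in the main comparison.

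**Figure D5:**
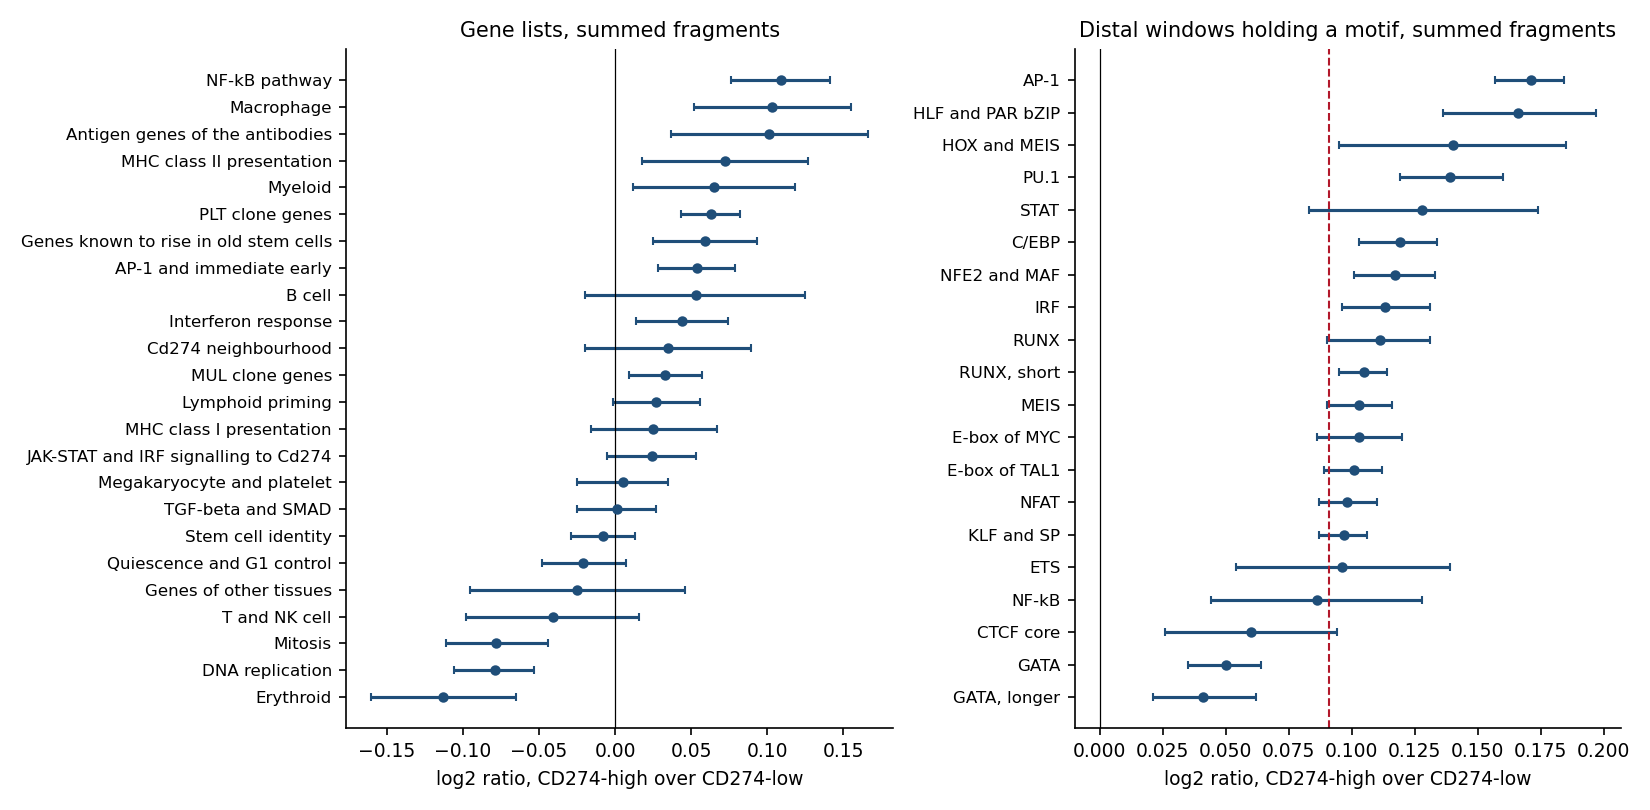
Log2 ratio of summed fragments in CD274-high over CD274-low cells (horizontal axes) for 24 gene lists (left) and for distal windows that hold a motif (right, motifs with at least 40 windows). Points are ratios, bars are exact 95% counting intervals, and the dashed line marks all 3622 distal windows. NF-kB genes and AP-1 windows lie at the high end, and erythroid genes and GATA windows at the low end.

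Gene lists were described by their counts and medians, beside the median of 0.00 over all genes. The lists were chosen with earlier results of these data known, so their values are descriptions only. Counts and medians cover the measured genes, while sums cover all genes found in a list, also those with too few fragments to be measured. In the erythroid list, 10 of 26 genes were measured, none was past the fold threshold for genes on the higher side and 2 were on the lower side, Gata1 and the water channel Aqp1, beside 0.904% and 0.766% of all genes measured. Gata1 had already been picked as the largest difference. Aqp1 had a log2 ratio of -0.42 (-0.67 to -0.17) and levels of 0.325, 0.270, 0.315 and 0.243 per 10000. Car2, the carbonic anhydrase of red cells, had -0.22 (-0.38 to -0.06), while Ank1, the membrane skeleton protein ankyrin, had 0.09 (-0.03 to 0.21), Klf1, a regulator of globin genes, 0.07 (-0.12 to 0.27) and Blvrb, biliverdin reductase B, 0.02 (-0.13 to 0.17). The measured genes were split evenly, with 5 above 0 and 5 below and a median of -0.03. The sum over all 26 genes had -0.11 (-0.16 to -0.07), and -0.08 (-0.13 to -0.03) without Gata1.

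Most measured genes of DNA replication and mitosis were a little lower in CD274-high cells, with no member past the gene threshold in either direction. For counts of 20 to 26 over 13 to 19, the median log2 ratio was -0.006 for replication and -0.02 for mitosis genes, beside 0.0006 over all genes measured. The values that follow compare CD274-high with CD274-low cells. Of 42 measured replication genes, 32 had a log2 ratio below 0, with a median of -0.09 and a sum of -0.08 (-0.11 to -0.05). The lowest upper bound was that of Ccne2, cyclin E2, with -0.30 (-0.50 to -0.09). Of 30 mitosis genes, 21 lay below 0, with a median of -0.08. Cdk1, the mitotic kinase, had -0.27 (-0.49 to -0.06) and Mki67, the proliferation marker Ki-67, -0.21 (-0.39 to -0.03). In the G1 list, Cdk6, a kinase that drives quiescent HSCs into cycle, had 1.61, 1.54, 1.43 and 1.39 fragments per 10000 and a log2 ratio of -0.22 (-0.32 to -0.11). Ccnd1, cyclin D1, had -0.26 (-0.44 to -0.08), and the G1 list as a whole had a median of 0.00.

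Most measured NF-kB pathway genes were a little higher in CD274-high cells. Their median log2 ratio of counts of 20 to 26 over 13 to 19 was 0.022, beside 0.0006 over all genes measured. Between the gates named CD274-high and CD274-low, 21 of the 25 measured had a log2 ratio above 0, the median was 0.10 and the sum 0.11 (0.08 to 0.14). The 1 gene past the gene threshold, beside 0.904% of all genes on the higher side, was Birc3, an inhibitor of apoptosis induced by NF-kB, with 0.324, 0.356, 0.371 and 0.436 per 10000 and a log2 ratio of 0.43 (0.21 to 0.64), a step up at each range. Traf1, an adaptor of TNF receptors, had 0.27 (0.09 to 0.45) and Relb, an NF-kB subunit, 0.20 (0.08 to 0.32), whereas Nfkb1 itself had 0.00 (-0.13 to 0.13). The AP-1 and immediate early list had a median of 0.05, with Fosl1 at 0.34 (0.11 to 0.57) and Fosb at -0.11 (-0.22 to -0.01).

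Of 32 measured interferon genes, 15 lay above 0 and 17 below. The median of these measured genes was -0.01, while the sum over all 59 genes found had 0.04 (0.01 to 0.07). The median and the sum, which cover different sets of genes, differed in sign. The sum was 0.08 (0.03 to 0.12) with gates at 35 or more and 9 or less, and 0.02 (-0.01 to 0.06) without cells with a Gata1 fragment. Past the gene threshold were 2 higher genes, Parp14 at 0.37 (0.14 to 0.60) and Gbp8, a guanylate-binding protein, at 0.33 (0.18 to 0.48), and no lower ones, beside 0.904% and 0.766% of all genes. The 25 genes of JAK-STAT and IRF signalling to Cd274 had a median of 0.04, with 14 above 0 and 11 below. The feedback inhibitor Socs3 had 0.23 (0.08 to 0.37) and Stat3 -0.11 (-0.20 to -0.01). MHC class I genes had a median of 0.02. Of 7 measured MHC class II genes, 4 lay above 0 and 3 below, with a median of 0.06 and none past the gene threshold. The invariant chain Cd74 had 0.25 (0.11 to 0.38) and H2-Ab1 0.19 (0.04 to 0.35), while H2-DMa had -0.08 (-0.17 to 0.01).

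Stem cell identity genes showed members on both sides, with a median of -0.02 over 22 genes. Kit, the stem cell factor receptor, had 1.41, 1.22, 1.24 and 1.21 fragments per 10000 and a log2 ratio of -0.22 (-0.33 to -0.11), and CD274-low cells stood above the other 3 ranges. Mecom, a transcription factor of long-term HSCs, had 4.494, 4.555, 4.795 and 4.882 and a log2 ratio of 0.12 (0.06 to 0.18), and Hlf had 0.15 (0.04 to 0.26). The megakaryocyte and platelet list had a median of 0.03 over 16 genes and a sum of 0.00 (-0.03 to 0.04), and Vwf, the marker gene of platelet-biased HSCs, had 2.18 and 2.17 per 10000 in the gates. Within this list, Pdgfc had 0.28 (0.11 to 0.46) and Gfi1b, a transcriptional repressor that acts in erythroid and megakaryocytic cells, -0.27 (-0.52 to -0.01).

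Lists of genes of PLT clones and of MUL clones (multi-lineage HSCs), which the study chose by RNA levels in other cells, were read as well. Of 67 such genes, 42 were measured, with 31 above 0 and a median of 0.07, and of 62 genes higher in MUL clones, 39 were measured, with 21 above 0 and a median of 0.03. No gene of either list passed the gene threshold. Creb5, a PLT clone gene, had 2.16, 2.35, 2.35 and 2.52 per 10000 and a log2 ratio of 0.22 (0.14 to 0.31), and Sord had -0.15 (-0.33 to 0.04). Among MUL clone genes, Cmtm7 had -0.23 (-0.38 to -0.08), while Srgap1 had 0.17 (0.05 to 0.28), Hyal3 0.23 (0.03 to 0.43) and Srsf2 0.15 (0.03 to 0.28). Summed log2 ratios were 0.06 (0.04 to 0.08) for PLT and 0.03 (0.01 to 0.06) for MUL clone genes. Scaled by promoter fragments, they were 0.04 (0.02 to 0.06) for PLT and 0.01 (-0.01 to 0.04) for MUL clone genes. With each cell thinned to 6000 fragments, they were 0.06 (0.04 to 0.09) and 0.01 (-0.02 to 0.05). At the promoters, the sums were 0.08 (0.04 to 0.11) for PLT and 0.09 (0.05 to 0.13) for MUL clone genes. The median log2 ratio over all promoters measured was 0.02.

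Markers of other cell types were read in the same way. Csf1r, the receptor of the macrophage growth factor, had 0.439, 0.477, 0.470 and 0.573 fragments per 10000 and a log2 ratio of 0.39 (0.20 to 0.57), and was the 1 gene past the gene threshold in both the myeloid and the macrophage lists, beside 0.904% of all genes on the higher side. Medians were 0.04 over 8 myeloid genes, 0.12 over 5 macrophage genes, 0.04 over 3 B cell genes and -0.04 over 7 T and NK cell genes. Summed over all 20 genes of the macrophage list, the level was higher at each step of CD274, with 5.91, 6.14, 6.26 and 6.35 per 10000. Of these, Cx3cr1 alone had 2.91, 3.05, 3.11 and 3.12, while Axl had a log2 ratio of -0.08 (-0.27 to 0.12). The summed log2 ratio of the list was 0.103 (0.052 to 0.155), beside 0.109 (0.076 to 0.141) for the NF-kB list. The B cell list had 3.10, 3.21, 3.10 and 3.22 per 10000, not in order. Medians of the remaining lists were 0.05 over 14 genes known to rise in old stem cells, 0.04 over 17 genes of lymphoid priming and 0.00 over 23 TGF-beta and SMAD genes. The sort left out lineage-positive cells, and the lineage antibodies of the study included Mac-1 and Gr-1 of myeloid cells. Whether other cells in the pool had a part in the differences was not tested.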

How the data were processed

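DOGMA-seq was applied to LT-HSCs of 24-month-old mice, and 3 libraries of 1 pool were read as deposited. The authors ran cellranger-arc 2.0.2 with mm10 on ATAC and RNA, and counted tags with CITE-seq-Count (version not stated in the sources read). Deposited values are raw counts with no normalization: 1 line per fragment with duplicates collapsed, totals per barcode and antibody tag counts. The RNA matrix was not analysed here.

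Cells with at least 10 tags were gated at CD274 counts of 27 and 12. Fragments were counted over GENCODE M21 genes with 2 kb upstream, promoters (1 kb on each side of the start) and 300 bp distal windows, built on local maxima of all kept cells, and scaled by all nuclear fragments of chromosomes 1 to 19 and X. Log2 ratios had 0.5 added to each sum. Features needed 500 (genes) or 200 fragments over both gates, and a ratio 25% higher or 20% lower (genes) or 1.5-fold (promoters, windows) was used to count them. Sums over a gene list or its promoters took all genes found, without this minimum. Intervals were exact conditional binomial, binomial or Poisson. Those of gene ratios were checked on simulated Poisson sums. That is the model they assume, so the check does not cover variation between cells. Each gate held 1 sample, so no test was run and p-values were not computed. The members and lists were chosen with earlier results of these data known, and the genes of each clone list by the study on other cells.

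Named were the antigen genes, Cd274, Pdcd1lg2, Jak2, Vwf and Gata1, the 10 genes, 5 promoters and 8 windows with the highest lower bound or lowest upper bound past the fold (overlapping genes as 1 locus, windows 5 kb apart), and up to 3 genes at each end of a list. Older symbols were matched through RefSeq synonyms. Promoter sequences came from RefSeq (GRCm38.p6), where Epor was matched and Tcf15 was not. Motifs were searched on both strands: AGATAA and NAGATAAGN (GATA, overlapping), CCGGAAGT (ETS), GAGGAAGT (PU.1), TGTGGTTT and TGTGGT (RUNX, overlapping), TGANTCA (AP-1), GAAANNGAA (IRF), TTCCNGGAA (STAT), GGGANTTCC (NF-kB), TTGCNNAA (C/EBP), TTACNTAA (HLF), TGACAG (MEIS), TGATTTAT (HOX and MEIS), CAGCTG (TAL1 E-box), CACGTG (MYC E-box), AGGGGGCGC (CTCF), CCCCNCCC (KLF and SP), TGGAAA (NFAT), CTAAAATAG (MEF2) and TGCTGAG (NFE2 and MAF). Possible doublets (cells with too many autosomal sites under 3 or more fragments) were kept, and an alternative left them out. Other alternatives changed the gates, minima, scaling, depth and fragment length. Versions were samtools 1.23.1, pysam 0.24.0, pandas 2.3.3, scipy 1.17.1, numpy 2.4.6 and matplotlib 3.10.9 under Python 3.11.15.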

Additional observations from a re-analysis of the deposited data

How the results depend on the processing

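No paired analysis was possible because the libraries that share a replicate number are different assays of 1 pool and no result came from a test. Counts past a fold depended on the gates and on how many features reached the minimum, with 3622 distal windows measured in the main comparison, 742 after thinning and 13856 with lower minima. Counts are given as higher and lower in CD274-high cells. For genes (118 and 100) they were 41 and 55 with gates at 20 or more against 19 or less, 51 and 36 with each cell thinned to 6000 fragments, 430 and 462 with minima of 200 and 100 fragments, 21 and 14 with minima of 1000 and 400, and 46 and 39 with fragments under 150 bp. The higher genes were 188 with at least 20 tags, and the lower genes 65 with gates at 35 or more and 9 or less. Scaled by promoter fragments they were 84 and 146. For promoters (27 and 18) they were 10 and 9 with gates at 20 and 19, 10 and 4 after thinning, 15 and 3 without cells with a Gata1 fragment, 125 and 71 with the lower minima, and 3 and 1 with the higher minima. Higher promoters were 70 with at least 20 tags and 11 with short fragments, and lower promoters 11 without cells with overlap excess and 10 with equal numbers in strata of depth. For distal windows (79 and 11) they were 15 and 7 with the gates at 35 and 9, 52 and 5 with gates on the CD274 rank residual, 45 and 6 with at least 20 tags, 42 and 5 in strata of depth, 25 and 4 without Gata1 cells, 9 and 3 after thinning, 759 and 170 and then 3 and 1 with lower and higher minima, and 33 and 26 scaled by distal windows. Higher windows were 41 without the deepest 5% of cells and 6 with short fragments, and lower windows 22 with gates at 20 and 19 and 7 with the centred log ratio.

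With gates at 20 and 19, 1 of the 10 named higher genes and 5 of the 10 named lower genes stayed past the gene threshold, and 0 of the 10 named promoters, 2 of the 8 named higher windows and 0 of the 8 named lower windows stayed past 1.5-fold. Other settings also lost calls among the 8 higher and 8 lower named windows, with 4 and 3 left past the fold for the rank residual, 4 and 4 for the centred log ratio, 4 and 3 for at least 20 tags, 7 and 3 after thinning, 8 and 4 without overlap excess and 8 and 4 without Gata1 cells. Of the 5 named higher promoters, 2 were left for the centred log ratio and 3 each for the rank residual, the gates at 35 and 9, short fragments and without Gata1 cells. The genes, promoters and windows named by rank kept their direction in the alternatives run. These alternatives reused cells of the gates that chose the features, so a kept direction is no separate support. Of the 15 genes named by their role, 10 changed sign in at least 1 alternative, Vwf and Itgb3 in the most. The Gata1 log2 ratio (-0.92) was -1.22 with the gates at 35 and 9 and -0.53 with gates at 20 and 19. Without cells with a Gata1 fragment in the gene, none was left to compare. The value of -0.31 there reflects only the depth of the gates. Summed log2 ratios moved to -0.053 (-0.12 to 0.01) after thinning for the erythroid list, to 0.065 for NF-kB and -0.047 for DNA replication with gates at 20 and 19, and to -0.053 for DNA replication without Gata1 cells. With the gates at 35 and 9 they were 0.076 for interferon, 0.127 for MHC class II and 0.085 for AP-1 genes, and the antigen genes (0.101) had 0.030 with at least 20 tags and 0.031 without Gata1 cells. The Cd274 neighbourhood (0.035) had 0.100 with at least 20 tags, stem cell identity (-0.008) had -0.029 scaled by promoter fragments, and PLT clone genes (0.063) had 0.036 with gates at 20 and 19 and 0.041 scaled by promoter fragments. The difference of GATA windows from all windows (-0.042) was -0.023 with the gates at 35 and 9, -0.025 with gates at 20 and 19, -0.016 with at least 20 tags, -0.027 without overlap excess, -0.024 with short fragments, and turned to 0.001 after thinning. For AP-1 windows (0.079) it was 0.046 with gates at 20 and 19 and 0.065 without Gata1 cells. Among other motifs, the longer GATA motif turned to 0.015 and the short RUNX motif to -0.0034 with the gates at 35 and 9, the short RUNX motif to -0.0065 with short fragments, and the HOX and MEIS motif to -0.042 after thinning.

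With at least 20 tags, which left 277 CD274-low cells, ratios turned below 1 for CD61 (0.953), CD357 (0.947), MERTK (0.670), P2X7R (0.928) and CD68 (0.770), and were 1.20 for CD27, 1.45 for CD201, 0.680 for CD106 and 0.582 for CD163. Without overlap excess they were 1.31 for CD61, 1.41 for CD27 and 1.09 for MERTK. The cause of these changes was not tested beyond the numbers of cells and features given. The alternatives without Gata1 cells and with scaling by distal windows were chosen after seeing the data.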

Other observations

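Replication-dependent histone genes, which are transcribed in S phase, were read after their values had been seen. Of 49 measured promoters of the histone clusters, 38 had a log2 ratio of CD274-high over CD274-low below 0. The median was -0.14, beside 0.02 over all promoters measured, and the summed log2 ratio was -0.11 (-0.14 to -0.07). Levels were 14.5 fragments per 10000 nuclear fragments in CD274-low cells and 13.4, 13.45 and 13.43 in the other ranges, so CD274-low cells stood above the rest. Of the 49 promoters, 2 (Hist1h4i and Hist1h3d) were at least 1.5-fold lower in CD274-high cells, beside 0.142% of all promoters measured. Of 30 measured histone genes, 21 lay below 0, with a median of -0.05. Fragments of near-identical histone copies may be placed at more than one gene, and no test was made.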
